A study of Mus musculus with 12 samples.

Results

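A set of 9 genes that serve as markers of cortical and hippocampal neurons were followed through bulk RNA-seq of the mouse hypothalamus: Slc17a7, Neurod6, Neurod2, Tbr1, Emx1, Prox1, Lamp5, Nrgn and Camk2a. They were named by symbol, with earlier results of these data known, and all 9 of 9 were found by gene ID among the 78334 rows of the count table. The libraries came from male C57BL/6 mice that entered the study at 8 weeks of age. Ob + RSV (n = 3 libraries), Ob + EAE (n = 2) and Ob + CUR (n = 1) were mice with obesity on a diet with 60% of its energy from fat that received resveratrol at 2.25 mg/kg, aged garlic extract at 200 mg/kg or curcumin at 50 mg/kg, given daily by gavage for 28 days from 16 weeks of age. Ob mice (n = 3) had the same diet with vehicle gavage, and C mice (n = 3) had standard chow with vehicle gavage. The labels give 8 weeks of diet in total yet start the gavage after 8 weeks of it, so the length of the diet at collection is not settled. The question put to these genes was how much tissue of the adjoining cortex and hippocampus each dissected hypothalamus carried, which would reach the libraries as reads of genes that hypothalamic neurons use little.

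The excitatory neurons of the cortex and hippocampus arise from the pallium, the roof of the embryonic forebrain, under transcription factors such as Emx1, Neurod2, Neurod6 and Tbr1, and as adult cells they load glutamate into vesicles with VGLUT1, the product of Slc17a7. Hypothalamic and most thalamic excitatory neurons load it with VGLUT2, the product of Slc17a6, although VGLUT1 is also known from the medial habenula and some thalamic nuclei. Camk2a and Nrgn encode a postsynaptic kinase subunit and a calmodulin-binding protein that are abundant in forebrain neurons at large, Lamp5 marks upper-layer cells and a class of interneurons, and Prox1 marks dentate granule cells but also other neurons, oligodendrocyte precursors and lymphatic endothelium. In bulk tissue, fewer cells of a type and less RNA per cell cannot be told apart.

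Promoter sequence was at hand for 8 of the 9 genes, with 10 start sites in RefSeq on build GRCm38.p6. The 250 bases before the start are given for Tbr1 and Lamp5, which varied together over the libraries as described further on, and for Prox1, the only marker with an edgeR adjusted p under 0.05 in any of the 4 comparisons (Ob + EAE against Ob, below the minimum fold change). They lie at chr2:61804203-61804452 on the plus strand for Tbr1, at chr2:136052089-136052338 on the plus strand for Lamp5, and at chr1:190170828-190171077 on the minus strand for Prox1. Capitals mark matches, on either strand, to the E-box forms CAGATG and CAGCTG (letters bound by Neurod and related factors), to the T-box half-site GTGTGA, and to the homeodomain core TAATTA, which was added after the sequences had been read.
Tbr1: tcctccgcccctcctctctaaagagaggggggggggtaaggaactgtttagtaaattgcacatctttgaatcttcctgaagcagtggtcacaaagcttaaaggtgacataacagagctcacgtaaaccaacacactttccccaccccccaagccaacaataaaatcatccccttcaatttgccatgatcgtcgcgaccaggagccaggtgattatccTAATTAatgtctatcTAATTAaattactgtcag
Lamp5: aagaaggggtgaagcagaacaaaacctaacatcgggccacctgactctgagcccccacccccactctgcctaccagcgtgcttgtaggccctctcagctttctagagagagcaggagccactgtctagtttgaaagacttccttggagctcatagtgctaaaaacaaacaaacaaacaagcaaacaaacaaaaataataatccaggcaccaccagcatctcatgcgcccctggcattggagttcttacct
Prox1: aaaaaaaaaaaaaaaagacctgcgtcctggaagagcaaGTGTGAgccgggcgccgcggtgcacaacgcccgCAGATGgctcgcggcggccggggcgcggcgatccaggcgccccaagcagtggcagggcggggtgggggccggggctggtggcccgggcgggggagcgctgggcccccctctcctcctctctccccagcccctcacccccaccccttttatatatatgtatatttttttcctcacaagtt
Tbr1 held TAATTA at 2 places, Prox1 held CAGATG and GTGTGA once each without overlap, and Lamp5 held none of the 4. Prox1 and Lamp5 each had 2 start sites, of which the first is shown, and the second held none of the 4 in either gene. The bases just after the Tbr1 and Lamp5 starts shown were found in their GENCODE vM21 transcripts. Those after the Prox1 starts were not. Over the 10 start sites, CAGATG was found in 3, GTGTGA in 2, TAATTA in 1 and CAGCTG in 0. Of 32851 mouse promoters of the same length, 14.4% held CAGATG, 13.0% CAGCTG, 12.3% GTGTGA and 4.84% TAATTA. Tbr1 and Lamp5 thus had no letters of this set in common.

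Counted reads per library ran from 15655156 to 26284661, and levels are given as CPM, the reads of a gene scaled to a common total of counted reads. The fewest genes, 24450 to 26123, were detected in Ob + RSV replicate 2, Ob replicate 1 and C replicate 2, against 28632 to 38081 in the other 9 libraries. The hypothalamic peptides Oxt and Avp were at 202 CPM or more in 11 libraries but at 4.04 and 8.42 CPM in Ob + CUR, and Ob + RSV replicate 3 held 0 reads of the ventromedial and tanycyte genes Nr5a1 and Rax. The part of these differences in the marker levels was not tested. Long genes also stood at unequal levels against short ones: the median deviation of 4655 protein-coding genes of at least 6000 exon bases minus that of 1683 under 2000 bases was -0.53, -0.22 and 0.30 (log2) in Ob + RSV, 0.41 and 0.68 in Ob + EAE, 0.58 in Ob + CUR, -0.83, -0.36 and -0.09 in Ob, and 0.13, 0.02 and -0.20 in C. The Ob + EAE libraries and the Ob + CUR library lay above all others, and Ob held the lowest library.

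The 3 transcription factors that define pallial excitatory neurons were low in every library. Emx1, a factor of the pallium, had 43 reads in all 12 libraries together. It had 17, 0 and 6 reads in Ob + RSV, 6 and 1 in Ob + EAE, 1 in Ob + CUR, 0, 1 and 3 in Ob, and 6, 0 and 2 in C. A count of 0 allows up to 3 reads, which is 0.114 to 0.192 CPM at these depths for counting error alone, and 8 of the 12 libraries held 3 reads or fewer. Neurod6, a factor of mature cortical and CA1 pyramidal neurons, had 20, 14 and 22 reads in Ob + RSV, 17 and 13 in Ob + EAE, 36 in Ob + CUR, 25, 13 and 3 in Ob, and 22, 11 and 22 in C. Its level stayed between 0.192 and 1.55 CPM. Ob + CUR was the highest library, and the other groups overlapped.
Neurod2, which acts in the same neurons, was at 4.53, 3.58 and 1.88 CPM in Ob + RSV, 1.52 and 0.836 CPM in Ob + EAE, 3.48 CPM in Ob + CUR, 1.70, 1.98 and 0.894 CPM in Ob, and 2.26, 1.65 and 1.77 CPM in C. It was highest in Ob + RSV replicates 1 and 2 and in Ob + CUR, while Ob + RSV replicate 3 lay among the Ob and C libraries. These factors summed to between 1.28 and 5.94 CPM per library.

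**Figure D1:**
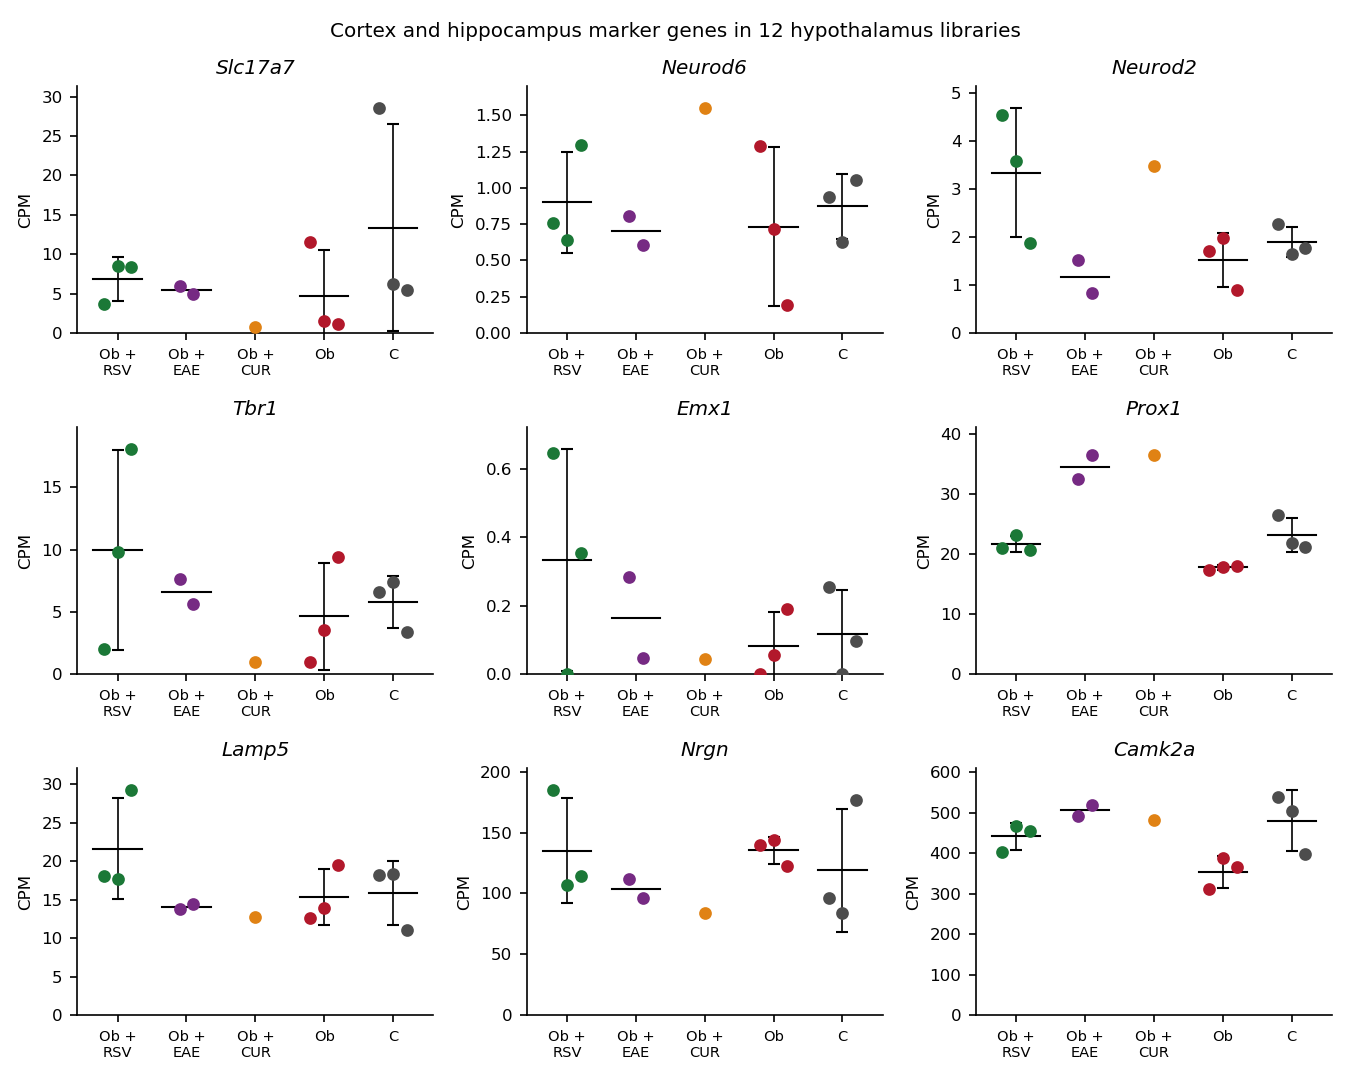
Level of each of the 9 marker genes in CPM (linear axis from 0), 1 point per library, by group; black lines are group means and bars the SD for groups of 3 libraries. Slc17a7 reached 28.5 CPM in 1 C library and Tbr1 18.1 CPM in 1 Ob + RSV library, whereas Prox1 lay between 17.4 and 18.1 CPM in Ob, below the libraries of every other group.

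Levels between genes are compared per kilobase of exon length. On that scale the means over 12 libraries were 83.8 CPM per kb for Nrgn and 59.5 CPM per kb for Camk2a, then 5.67 for Lamp5, 2.92 for Prox1, 1.34 for Slc17a7, 1.14 for Tbr1, 0.692 for Neurod2, 0.406 for Neurod6 and 0.0752 for Emx1. Camk2a (lowest library 41.6 CPM per kb) and Lamp5 (highest library 9.96 CPM per kb) did not overlap, while the ranges over libraries of every other pair of neighbours in this order did. Slc17a6, the glutamate transporter gene of the hypothalamus itself, stood at 41.5 CPM per kb, far above Slc17a7, and its lowest library (27.7 CPM per kb) exceeded the highest of Slc17a7. Camk2a alone made up 71.2% of all reads on the 9 genes and Nrgn 19.5%, so a sum over the list is a measure of these 2 genes and not of the pallial factors.

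**Figure D2:**
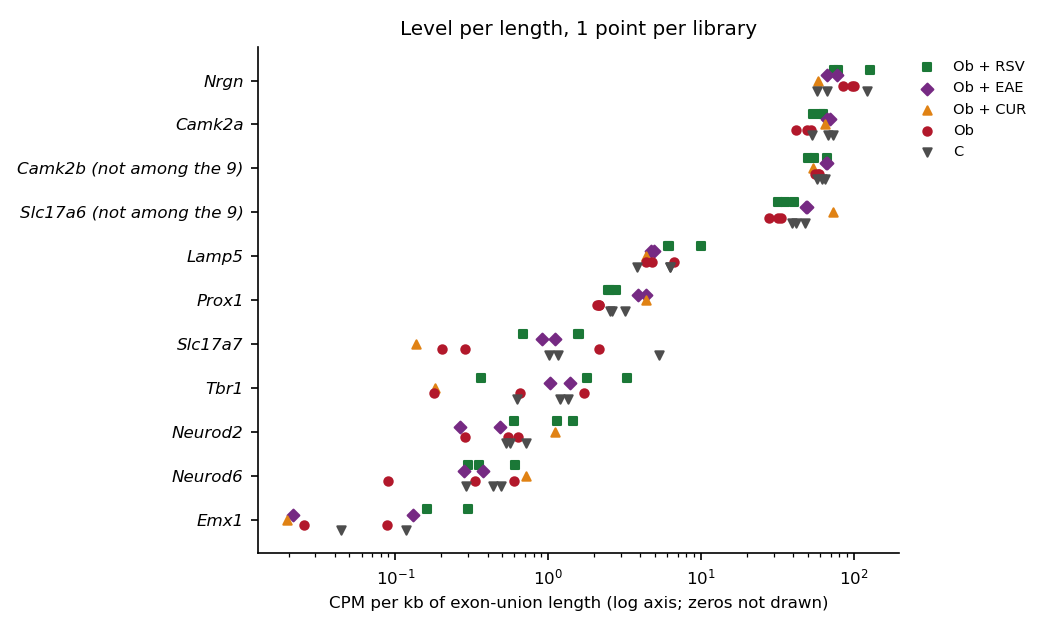
Level per kilobase of exon-union length (CPM per kb, log axis), 1 point per library, for the 9 markers and for Slc17a6 and Camk2b, which are shown for scale; the 3 libraries with 0 reads of Emx1 are not drawn. Nrgn and Camk2a lay near Camk2b, and Slc17a7 lay below Slc17a6 in every library.

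Slc17a7 and Tbr1 varied most between libraries against genes of like level. Slc17a7 was at 3.69, 8.55 and 8.41 CPM in Ob + RSV, 5.92 and 4.92 CPM in Ob + EAE, 0.730 CPM in Ob + CUR, 11.5, 1.54 and 1.09 CPM in Ob, and 28.5, 6.20 and 5.41 CPM in C. One library of C and 1 of Ob stood above the rest of their own groups, and its highest library held 39.0 times the CPM of its lowest. Tbr1, a T-box factor of deep-layer cortical, amygdalar and olfactory neurons, was at 1.98, 9.79 and 18.1 CPM in Ob + RSV, 7.62 and 5.62 CPM in Ob + EAE, 0.988 CPM in Ob + CUR, 0.979, 3.58 and 9.39 CPM in Ob, and 6.56, 7.40 and 3.40 CPM in C. It spanned 18.4 times, most of it inside the Ob + RSV and Ob groups. Over the 9 libraries of C, Ob and Ob + RSV, the edgeR dispersion of Slc17a7 was at or above that of 99.4% of genes within 0.5 log2 CPM of its level, and that of Tbr1 at or above 98.3%. The same share was 92.5% for Nrgn, 59.7% for Lamp5, 38.3% for Emx1, 32.7% for Neurod2, 26.8% for Neurod6, 22.7% for Camk2a and 15.5% for Prox1.

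Lamp5, Nrgn, Prox1 and Camk2a moved within narrower limits. Lamp5 was at 18.0, 17.6 and 29.2 CPM in Ob + RSV, 13.8 and 14.4 CPM in Ob + EAE, 12.8 CPM in Ob + CUR, 12.7, 14.0 and 19.5 CPM in Ob, and 18.2, 18.4 and 11.1 CPM in C. Its highest library was the one in which Tbr1 was highest, Ob + RSV replicate 3, and the groups of 3 overlapped. Nrgn was at 184.7, 106.6 and 114.4 CPM in Ob + RSV, 111.6 and 96.4 CPM in Ob + EAE, 84.3 CPM in Ob + CUR, 139.6, 143.8 and 122.7 CPM in Ob, and 96.6, 83.5 and 177.2 CPM in C. It was high in 1 library each of Ob + RSV and C, and lower in Ob + EAE than in any Ob library.
Prox1 was at 21.1, 23.2 and 20.7 CPM in Ob + RSV, 32.5 and 36.6 CPM in Ob + EAE, 36.6 CPM in Ob + CUR, 17.4, 17.9 and 18.1 CPM in Ob, and 26.5, 21.9 and 21.2 CPM in C. The Ob libraries were the 3 lowest of the 12, and the Ob + EAE and Ob + CUR libraries were the 3 highest. Camk2a was at 403.5, 468.1 and 454.0 CPM in Ob + RSV, 492.9 and 519.5 CPM in Ob + EAE, 481.8 CPM in Ob + CUR, 310.8, 387.3 and 365.4 CPM in Ob, and 539.9, 505.5 and 397.1 CPM in C. Here too the Ob libraries were the 3 lowest, and the highest was a C library.

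Groups were compared with edgeR's quasi-likelihood test over all genes, with Benjamini-Hochberg adjustment over all genes tested, and a gene was called at an adjusted p under 0.05 and a log2 fold change (log2FC) of at least 1 in either direction. All 9 markers passed the filter of 10 reads in total in both fits. DESeq2 gave no adjusted p for Slc17a7 in the comparisons among C, Ob and Ob + RSV, nor for Neurod6, Neurod2 and Emx1 in Ob + EAE against Ob, so its counts of markers are out of 8 and 6. Ob is the reference of Ob + RSV and Ob + EAE and is itself set against C, so the 4 comparisons share libraries and are not independent.

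In Ob + RSV against Ob, 8 of 9 markers had a positive log2FC (median 0.46, against 0.00 over all genes tested), and 0 of 9 were called by edgeR and 0 of 8 by DESeq2. Across all 33534 genes, 0 were called (0.0%) by edgeR and 0 by DESeq2. At an unadjusted p under 0.05 edgeR gave 0 of 9 markers against 3.16% of all genes. The libraries of both groups did not overlap for 2 of 9 markers, Prox1 and Camk2a, against 6.68% of all genes. The values nearest the threshold were 1.08 ± 0.57 (SE) for Tbr1 (adjusted p = 1, edgeR) and 1.08 ± 0.62 for Neurod2 (adjusted p = 1, edgeR). Tbr1 was higher than the highest Ob library in 2 of the 3 Ob + RSV libraries, and its log2FC was 0.32 without Ob + RSV replicate 3. Prox1 and Camk2a stood 0.25 ± 0.24 and 0.28 ± 0.21 (SE, log2FC) higher. With each library's trend on gene length removed, a correction chosen after the data had been seen, they stood at 0.18 and 0.23.

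In Ob + RSV against C, 6 of 9 markers had a positive and 3 a negative log2FC (median 0.20, against -0.00 over all genes). By edgeR 0 of 9 were called and by DESeq2 0 of 8, and each tool called 0 of all genes (0.0% of 33534 by edgeR). By edgeR 0 of 9 passed an unadjusted p under 0.05, against 2.87% of genes, and 0 of 9 had libraries that did not overlap, against 5.43%. Slc17a7 was at -0.99 ± 0.60 (SE; adjusted p = 1, edgeR) and at 0.26 without C replicate 1, the library with 28.5 CPM.

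In Ob + EAE against Ob, 5 of 9 markers had a positive and 4 a negative log2FC (median 0.09, against 0.05 over all genes). Of 36164 genes, 665 were called (1.84%), and 0 of 9 markers were called by edgeR and 0 of 6 by DESeq2. Without the minimum on log2FC, 1 of 9 passed an adjusted p under 0.05, against 2.38% of all genes. This was Prox1, which rose by 0.89 ± 0.23 (SE, log2FC; adjusted p = 0.036, edgeR) and was higher than every Ob library in 2 of 2 Ob + EAE libraries. Its DESeq2 adjusted p was 0.0032. An unadjusted p under 0.05 was reached by 2 of 9 markers, Prox1 and Camk2a, against 13.4% of genes. The libraries did not overlap for 3 of 9, which were Prox1 and Camk2a, both higher in Ob + EAE, and Nrgn, lower in Ob + EAE, against 38.7% of genes. Camk2a was at 0.44 ± 0.21 (adjusted p = 0.36, edgeR) and Nrgn at -0.46 ± 0.28 (adjusted p = 0.54, edgeR).

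The Prox1 difference changed with the length correction, and vessel genes also differed between these 2 groups. After removal of the length trend it was 0.57 ± 0.21 (SE, log2FC; adjusted p = 0.25, edgeR), Camk2a was at 0.19 and Nrgn at -0.01, and 23 genes in place of 665 were called. Over 13 alternative fits the adjusted p of Prox1 ran from 0.0032 to 0.65 and was under 0.05 in 5. Leaving out any 1 library of the 2 groups brought the adjusted p above 0.05: log2FC stayed between 0.83 and 0.99, and the adjusted p was 0.65 without Ob + EAE replicate 2, 0.20 without Ob + EAE replicate 1, and 0.17, 0.081 and 0.073 without Ob replicate 1, 2 and 3. The 6 endothelial genes summed to 43.1 to 63.8 CPM in Ob + RSV, 196 to 199 CPM in Ob + EAE, 219 CPM in Ob + CUR, 42.0 to 102 CPM in Ob and 43.4 to 81.4 CPM in C. Of these 6, 4 were called higher in Ob + EAE than in Ob (1.84% of all genes were called), among them the vascular endothelial growth factor receptor gene Flt1 (log2FC 1.77 ± 0.30 (SE), adjusted p = 0.0039, edgeR). The lymphatic marker Lyve1 was at 0 to 1.55 CPM in all libraries. Pearson's r of Prox1 with Flt1 was 0.80 over the 12 libraries (rho = 0.52), 0.02 on deviations from group means and -0.12 over the 9 libraries of C, Ob and Ob + RSV. With Slc17a6 it was 0.88, 0.42 and 0.82 in the same order, and with the neuronal gene Map2 0.83, 0.11 and 0.52. The part of vessels or of gene length in the Prox1 difference was not tested beyond these values.

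**Figure D3:**
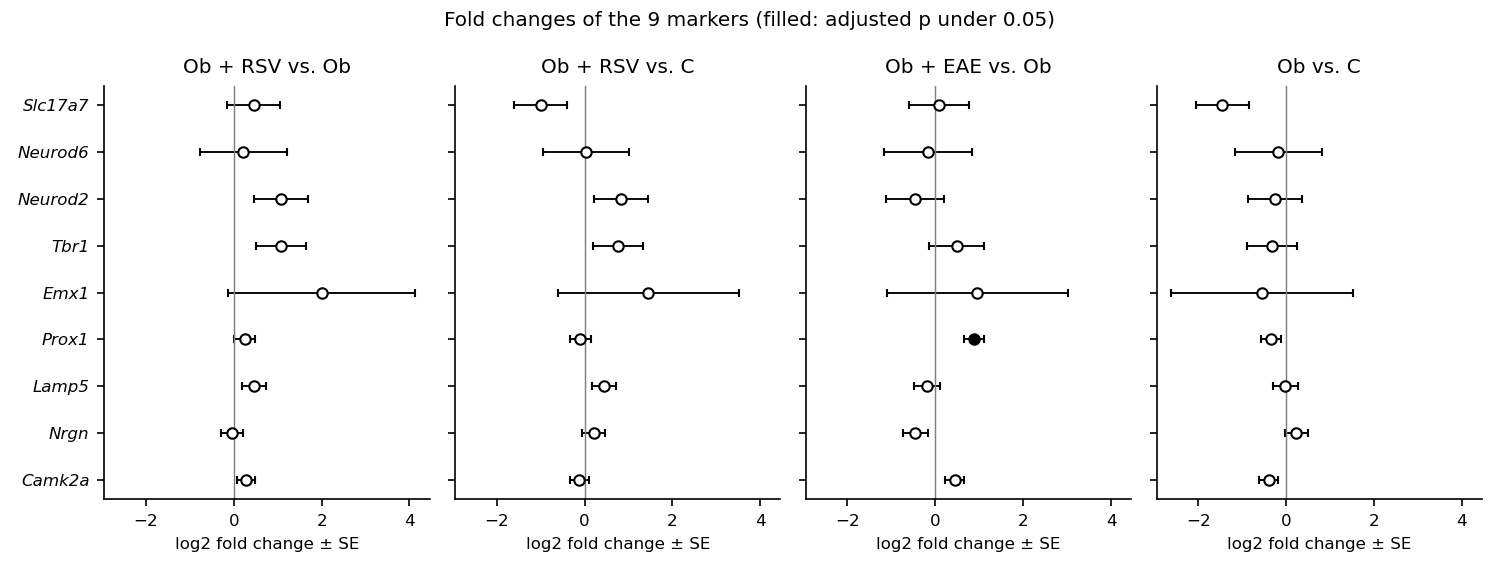
log2 fold change of each marker with its SE in the 4 comparisons (edgeR, Ob + RSV against Ob and against C, Ob + EAE against Ob, Ob against C); the filled point has an adjusted p under 0.05. Only Prox1 in Ob + EAE against Ob (0.89) is filled, and Emx1 has the widest errors.

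In Ob against C, 8 of 9 markers had a negative log2FC (median -0.32, against -0.00 over all genes), and 0 of 9 were called by edgeR and 0 of 8 by DESeq2. Each tool called 0 of all genes (0.0% of 33534 by edgeR). At an unadjusted p under 0.05 edgeR gave 1 of 9, Slc17a7, against 2.75% of genes. The libraries did not overlap for 2 of 9, Prox1 and Camk2a, both lower in Ob, against 7.64% of genes. Slc17a7 was at -1.45 ± 0.61 (SE; adjusted p = 1, edgeR). Without C replicate 1 it was at -0.20 and without Ob replicate 1 at -3.34, so 1 library on each side set its size. Camk2a was at -0.40 ± 0.21 (adjusted p = 1, edgeR) and Prox1 at -0.34 ± 0.24 (adjusted p = 1, edgeR). With the length trend removed they were at -0.28 and -0.19. Emx1, Neurod6 and Neurod2, at -0.54, -0.18 and -0.26, had SEs of 2.07, 0.99 and 0.62, so differences of this size could not be told from none. The summed level of the 9 markers was 638 to 648 CPM in Ob + RSV, 667 to 679 CPM in Ob + EAE, 622 CPM in Ob + CUR, 496 to 571 CPM in Ob and 618 to 720 CPM in C. The Ob sums were the 3 lowest, as were the Ob levels of Camk2a.

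The markers did not vary as one. Among the 36 pairs of markers, Pearson's r of log2 CPM over the 12 libraries had a median of 0.06, with 21 pairs positive and 15 negative. These correlations describe libraries that differ in group, depth and length balance. The highest was between Prox1 and Camk2a (r = 0.75, Spearman's rho = 0.86, r = 0.79 without the 2 libraries farthest from the median of Prox1). Tbr1 and Lamp5 followed (r = 0.69, rho = 0.70, r = 0.64 without the 2 farthest, r = 0.75 on deviations from group means in 11 libraries). The lowest was between Nrgn and Camk2a (r = -0.70, rho = -0.77, r = -0.81 without the 2 farthest). Prox1 and Camk2a rank as the longest of the 9 by exon length (8390 and 7465 bases) and Nrgn as the shortest (1453 bases). The difference of long and short genes per library had an r of 0.84 with Prox1, 0.79 with Camk2a and -0.69 with Nrgn over the 12 libraries, and of 0.55, 0.76 and -0.60 over the 9 libraries of C, Ob and Ob + RSV. Slc17a7 had an r over 12 libraries of 0.28 with Neurod6, 0.03 with Neurod2, 0.29 with Tbr1 and 0.06 with Emx1. Without C replicate 1 and Ob + CUR, the 2 libraries farthest from its median, these were 0.74, 0.27, -0.07 and -0.25, so the value with Neurod6 depended on those libraries.

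**Figure D4:**
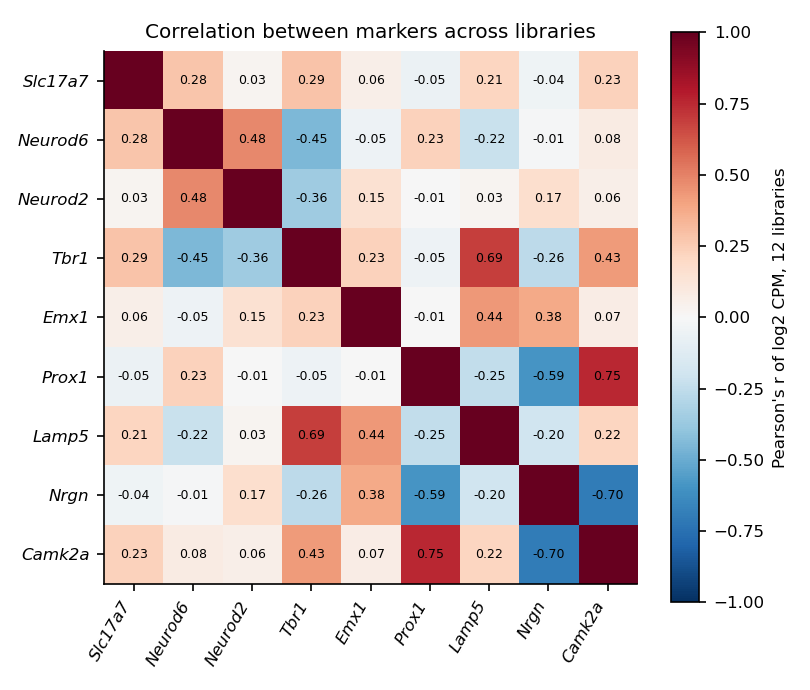
Pearson's r between the log2 CPM of each pair of markers over 12 libraries; red is positive and blue negative. The deepest red cells off the diagonal are Prox1 with Camk2a (0.75) and Tbr1 with Lamp5 (0.69), and the deepest blue is Nrgn with Camk2a (-0.70).

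Outside the list, different genes ran beside different markers. Slc17a7 ran with some genes of thalamic neurons, and the gene most like it among 16877 was Tcf7l2, a factor of thalamic and habenular neurons (r = 0.94, rho = 0.83, r = 0.88 without the 2 farthest libraries, r = 0.94 on deviations from group means). Prkcd, a kinase gene of thalamic relay neurons, was at rank 4 (r = 0.83, rho = 0.88). Other thalamic genes followed it less closely: r was 0.72 for Tnnt1, 0.64 for Gbx2, 0.62 for Ramp3, 0.55 for Synpo2 and -0.15 for Slc17a6, and 0.65, 0.34, 0.43, 0.27 and 0.26 in the same order without the 2 farthest libraries. In C replicate 1, where Slc17a7 was highest, Tcf7l2 was at 91.2 CPM and Prkcd at 92.8 CPM, the highest of all 12 libraries for both. The 12 thalamic genes summed to 353 to 490 CPM in Ob + RSV, 503 to 514 CPM in Ob + EAE, 600 CPM in Ob + CUR, 287 to 459 CPM in Ob and 448 to 791 CPM in C. In Ob against C all 12 had a negative log2FC (median -0.81), 8 at an unadjusted p under 0.05 (2.75% of all genes), and 0 were called by edgeR. Ob + RSV against C was alike: all 12 were negative (median -0.75), 6 at an unadjusted p under 0.05 (edgeR, 2.87% of all genes), and 0 were called. Both comparisons share the C libraries, of which replicate 1 held 791 CPM and the others 448 and 490 CPM. In Ob + CUR a thalamic sum of 600 CPM stood beside the lowest Slc17a7 level, 0.730 CPM. Slc17a6, a member of that list, made up 394 CPM of this sum. Tcf7l2 and Prkcd, at 19.7 and 9.32 CPM, were at their lowest of the 12 libraries there, as Slc17a7 was.

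Tbr1 ran with Samd3 (r = 0.94), the gene most like it, and with Lhx6, a factor of forebrain interneurons (r = 0.76, rho = 0.69, r = 0.83 without the 2 farthest, r = 0.97 on deviations from group means). Lhx6 was at 5.90, 19.3 and 49.6 CPM in Ob + RSV, 8.85 and 8.26 CPM in Ob + EAE, 9.93 CPM in Ob + CUR, 3.04, 9.63 and 29.9 CPM in Ob, and 9.20, 8.08 and 6.95 CPM in C. Ob replicate 1 and Ob + RSV replicate 1, among the 3 lowest for Tbr1, were the 2 lowest for Lhx6, while Ob + CUR, also low for Tbr1, was not low for Lhx6. Ob + RSV replicate 3 was highest for Tbr1, Lamp5 and Lhx6, and that library had the highest sum of 12 GABAergic genes, 1709 CPM against 811 to 1285 CPM. The r of the difference between long and short genes was 0.34 with Tbr1 and 0.11 with Lamp5 over 12 libraries, and 0.91 and 0.67 over the 9 libraries of C, Ob and Ob + RSV. The share of each in the spread of Tbr1 was not tested.

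Nrgn ran with Mbp, a myelin gene, which was at rank 5 among the genes most like it (r = 0.90, rho = 0.85, r = 0.79 without the 2 farthest, r = 0.98 on deviations from group means). Ob + RSV replicate 1 and C replicate 3, the highest for Nrgn, were also highest for the sum of 6 oligodendrocyte genes, 8387 and 7847 CPM, against 4829 to 7532 CPM in the other 10. Prox1 was nearest to Sema5a (r = 0.97) and Akap12 (r = 0.96), and Camk2a to Kpna6 (r = 0.96) and Acvr1b (r = 0.96).

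**Figure D5:**
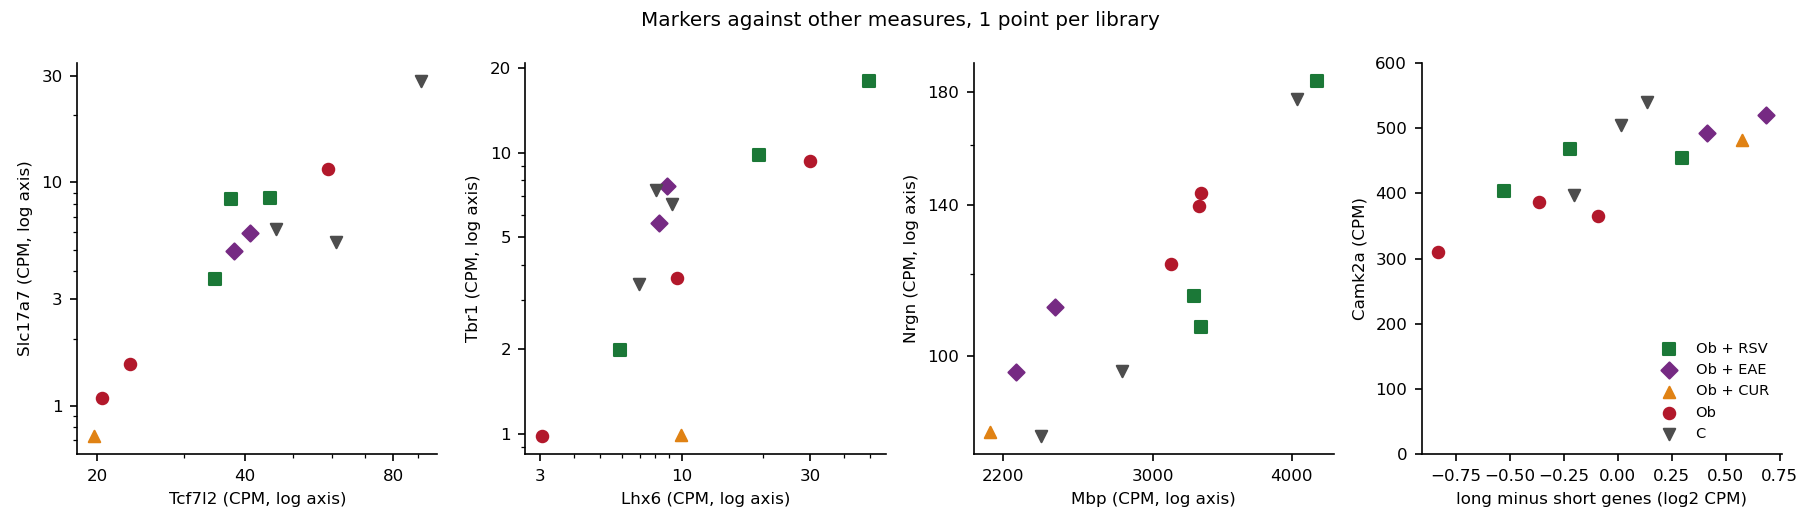
Slc17a7 against Tcf7l2, Tbr1 against Lhx6 and Nrgn against Mbp (CPM, log axes), and Camk2a (CPM, linear axis) against the difference between long and short genes (log2), 1 point per library with symbols by group. C replicate 1 lies at the top right for Slc17a7 (28.5 CPM), Ob + RSV replicate 3 for Tbr1 (18.1 CPM) and Ob + RSV replicate 1 for Nrgn (184.7 CPM), and the lowest Camk2a point is Ob replicate 1 (310.8 CPM).

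Lists of other genes of the same neurons were also compared. Of 23 further genes of pallial excitatory neurons, 0 were called by edgeR in Ob + RSV against Ob, Ob + RSV against C and Ob against C, and 1 in Ob + EAE against Ob. At an unadjusted p under 0.05 they gave 2, 0 and 2 of 23 genes in the first 3 of these comparisons, against 3.16%, 2.87% and 2.75% of all genes. In Ob + EAE against Ob they gave 4 of 23, against 13.4% of all genes, and the 1 of 23 called stands beside 1.84% of all genes. The called gene was Rprm, a cell cycle inhibitor used as a deep-layer marker, which fell by 1.27 ± 0.33 (SE, log2FC; adjusted p = 0.036, edgeR). Nptx1, a synaptic pentraxin, rose by 0.99 ± 0.22 (adjusted p = 0.017, edgeR), just under the minimum fold. Of a separate list of 12 genes used to tell hippocampal fields apart, 0 were called by edgeR and 0 had an unadjusted p under 0.05 in any of the 4 comparisons. They summed to 236 to 285 CPM in Ob + RSV, 293 to 298 CPM in Ob + EAE, 261 CPM in Ob + CUR, 283 to 304 CPM in Ob and 291 to 340 CPM in C. Cpne7 (92.6 to 188 CPM) and Wfs1 (64.2 to 113 CPM) held the most reads of that list. At the low end Spink8, Dsp, Tdo2, Iyd and Lct, singled out for their low values, did not exceed 2.06 CPM in any library.

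Of 16 partners of the Camk2a and Nrgn products, the CaMKII subunits, calmodulins and postsynaptic proteins, 0 were called by edgeR in the comparisons of Ob + RSV with Ob, Ob + RSV with C and Ob with C, where 1, 2 and 2 of 16 had an unadjusted p under 0.05, against 3.16%, 2.87% and 2.75% of all genes. In Ob + EAE against Ob 4 of 16 had an unadjusted p under 0.05, against 13.4% of all genes, and 1 of 16 was called, against 1.84%. This was Grin2b, an NMDA receptor subunit gene, which rose by 1.26 ± 0.26 (SE, log2FC; adjusted p = 0.013, edgeR). Camk2b, the other major neuronal CaMKII subunit gene, spanned 1.34 times over the 12 libraries, between 454 and 609 CPM, less than Camk2a (1.74 times).

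Across 16871 genes with a mean of at least 1 CPM, those most like the mean z score of the 9 markers were Plekhf2 (r = 0.83), Ap3s1-ps2, Syt4, Zfp748, Prnp, Vamp1, Ddah1, Serpind1, Igf1 and Cbx3-ps7 (r = 0.78), and those most opposed were Mapk12 (r = -0.88), Rcor2, D830035M03Rik, Dmrtc1a and Ifi35 (r = -0.84). None of the 23 further pallial genes was among these 15, which describes 12 libraries and says nothing of shared function. The mean z score itself was 0.39, 0.15 and 0.67 in Ob + RSV, 0.25 and -0.11 in Ob + EAE, -0.16 in Ob + CUR, -0.52, -0.40 and -0.59 in Ob, and 0.55, -0.15 and -0.09 in C. The Ob libraries were the 3 lowest on it. The label of the list was thus borne out only in part: most reads on it came from Camk2a and Nrgn, genes of forebrain neurons at large, and Emx1, Neurod6 and Neurod2 did not exceed 4.53 CPM in any library.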

How the data were processed

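The authors aligned the reads with HISAT2 and counted them per gene with featureCounts. Per the labels, the libraries were poly(A)-selected with a strand-specific kit, and the submitters' processing notes name FastQC, featureCounts and GRCm39. The deposited values are whole, unscaled counts for 78334 gene IDs in 12 libraries, and 51486 of these IDs (98.1% of all counts) could be matched to a gene symbol. For the annotation release and the strand setting of the counting, the sources used here give nothing. Exon-union lengths came from GENCODE vM21, by ID, and promoters from RefSeq (GRCm38.p6). No positions were taken from the counts. The study's methods describe 3 biological replicates per group for C, Ob and Ob + RSV. For Ob + EAE nothing says that the libraries came from separate mice, so the spread between its 2 libraries may be technical. Its p-values rest mostly on the spread within the other groups, which is assumed to hold for Ob + EAE. The 2 Ob + EAE libraries differed beyond sampling noise (median chi-square 2.11 over 14969 genes).

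C, Ob and Ob + RSV were tested in 1 fit of 9 libraries (6 residual degrees of freedom), and Ob + EAE against Ob in 1 fit of all 12 (7 residual degrees of freedom), where Ob + CUR is a lone library assumed to vary like the rest. edgeR 4.0.16 (TMM scaling, glmQLFit, glmQLFTest) was run on R 4.3.3, on genes with at least 10 reads in total. DESeq2 1.42.0 was an alternative, as were RLE and upper quartile scaling, filterByExpr, a filter of 1 read, a replicate block, 12 libraries in 1 fit, leaving out each library, leaving out 3 libraries together, and other thresholds. Removal of each library's trend on exon length was added after seeing the data. Correlations used log2 CPM (prior count 2). Tested on simulated Ob vs. C counts with 50 genes changed at each size among 31186 tested, the procedure recovered 13, 40, 44 and 46 at a log2FC of 1, 2, 3 and 4. The changed genes were drawn only from genes above a minimum of total reads, with the dispersion typical of their level. The recovery therefore does not carry over to markers with few reads (Emx1) or high dispersion (Slc17a7 and Tbr1).

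The 9 markers and the 15 other gene lists were chosen with earlier results of these data known. Named were all 9 markers, of each list up to 3 genes with the smallest p and up to 3 with the most reads, and the 10 genes most like and the 5 most opposed to the mean z score of the 9. Genes named beside single markers, the list genes named for Ob + CUR, and Oxt, Avp, Nr5a1, Rax, Lyve1, Lhx6, Spink8, Dsp, Tdo2 and Iyd, were singled out after their values had been seen. Figures were made with Python 3.11.15 and matplotlib 3.10.9. Some genes of these lists are not reported here.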

Additional observations from a re-analysis of the deposited data

How the results depend on the processing

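Of 36 marker log2FC values, over 519 refits, 19 kept their sign throughout, 17 turned in at least 1 refit, and 2 changed call. As alternatives to 0 genes called, Ob vs. C gave 388 at unadjusted p, 35 with a filter of 1 read and 0 to 11 with a library left out (11 without C replicate 3 and 6 without Ob replicate 3). Ob + RSV vs. Ob gave 733, 11 and 0 to 2 (without Ob + RSV replicate 1 or Ob replicate 3), and Ob + RSV vs. C 790, 32 and 0 to 3 (without Ob + RSV replicate 1). Ob + EAE vs. Ob, with 665, gave 1757 at unadjusted p, 77 with filterByExpr, 1031 with 1 read, 23 without the length trend, 1 without the 3 libraries in which the fewest genes were detected, and 18 to 1172 with a library left out (228 and 19 without Ob + EAE replicate 1 and 2, 18 without Ob replicate 1, 1172 without Ob replicate 3). Of the markers, 1 was called in Ob vs. C at unadjusted p and 1 in Ob + EAE vs. Ob with no minimum on log2FC.

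With the replicate block, 50, 10, 35 and 1417 genes were called in Ob vs. C, Ob + RSV vs. Ob, Ob + RSV vs. C and Ob + EAE vs. Ob, and 1 marker each in the first (Slc17a7, -1.63) and the last (Tbr1, 1.28), while Emx1 in Ob vs. C turned to 0.54. The numbers were not taken as a pairing: deviations of same-numbered libraries had correlations of -0.03 to 0.43 (4 of 9 over 0.1), although 8 of 9 libraries were most like one of their own number. The cause of these changes was not tested.

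Without the 3 libraries, Tbr1, Lamp5 and Nrgn in Ob vs. C turned to 0.34, 0.18 and -0.015, Nrgn in Ob + RSV vs. Ob to 0.20 and Neurod6 in Ob + EAE vs. Ob to 0.55. In 1 fit of 12 libraries Lamp5 in Ob vs. C was 0.0026. Without the length trend, Nrgn in Ob + RSV vs. Ob turned to 0.086 and Slc17a7, Neurod6 and Lamp5 in Ob + EAE vs. Ob to -0.071, 0.22 and 0.0076. With 1 library left out at a time, log2FC ran, in Ob vs. C, from -0.87 to 0.28 for Neurod6, -0.50 to 0.034 for Neurod2, -1.27 to 0.15 for Tbr1, -1.86 to 0.68 for Emx1 and -0.23 to 0.12 for Lamp5. In Ob + RSV vs. Ob it ran from -0.017 to 2.34 for Slc17a7, -0.24 to 0.92 for Neurod6 and -0.36 to 0.15 for Nrgn. In Ob + RSV vs. C it ran from -1.38 to 0.26 for Slc17a7, -0.30 to 0.25 for Neurod6, -0.17 to 0.038 for Prox1 and -0.12 to 0.59 for Nrgn. In Ob + EAE vs. Ob it ran from -0.35 to 2.02 for Slc17a7, -0.60 to 0.58 for Neurod6 and -0.73 to 2.28 for Emx1. Depth limits Emx1 and Neurod6, with at most 17 and 36 reads in a library.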

Other observations

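Ob + CUR, a single library with no comparison of its own, held the lowest Slc17a7 level (0.730 CPM) and the highest Neurod6 level (1.55 CPM, 36 reads) of the 12. Its Prox1 (36.6 CPM) and Camk2a (481.8 CPM) lay near those of Ob + EAE. Slc30a3, the zinc transporter gene of cortical and hippocampal glutamatergic terminals, was at 0.301 CPM in it, against 2.62 to 11.3 CPM in the other 11 libraries. The hypothalamic genes as a list summed to 541 CPM there and to 1266 CPM or more in each other library. Oxt and Avp hold the most reads of that list, and its members did not move together. Oxt, Avp, Hcrt, Pmch, Trh, Crh, Gal, Fezf1 and Six6 were at their lowest of the 12 libraries in Ob + CUR. Nkx2-1 (87.1 CPM), Sim1 (24.3 CPM) and Tbx3 (28.1 CPM) were at their highest there.

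The highest value of the 9 markers fell in Ob + RSV replicate 1 for 3 of them (Neurod2, Emx1 and Nrgn), in Ob + RSV replicate 3 for 2 (Tbr1 and Lamp5) and in C replicate 1 for 2 (Slc17a7 and Camk2a). The lowest fell in Ob replicate 1 for 3 (Tbr1, Prox1 and Camk2a).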
